A study of Mus musculus with 6 samples.

Results

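The collagen genes of the mouse ileum are described here as the 44 of 23402 rows of the deposited expression table whose symbol is Col, a type number, the letter a and a chain number. They cover 27 collagen types, with 11 fibrillar genes, the 6 chains of type IV collagen, which builds basement membranes, and 27 genes of other types. The rows were taken by name and not by any measured value, but the gene family was chosen with earlier results of these data known. RNA came from the terminal ileum, where the small intestine ends, of 6 mice, 1 library each. The animals were 6 weeks old and had been drinking dextran sodium sulfate (DSS), an agent that damages gut epithelium, up to day 6. Every animal carried floxed alleles of Il17ra, which codes for a chain of the interleukin-17 receptor, and which exons are floxed is not stated in these sources. The 3 Cre-positive mice (labelled KO, Il17rafl/fl;Atoh1-cre+) also carried Cre driven by Atoh1, the transcription factor gene of secretory epithelial precursors, and the 3 Cre-negative littermates (labelled WT, Il17rafl/fl;Atoh1-cre-) did not. Both groups received DSS, and no group without it was analysed here. Atoh1 is an epithelial gene, whereas most collagen of the gut wall is made by mesenchymal cells. The groups compare tissue whose secretory cells are meant to lack the receptor with tissue whose secretory cells keep it.

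Collagens are proteins of 3 chains wound into a triple helix. Fibrillar collagens, mainly types I and III with a minor share of type V that helps to start fibrils, give the wall of the gut its tensile strength and are made by fibroblasts and smooth muscle cells. Type IV collagen forms the sheet under epithelium, muscle, vessels and nerves, and other types form microfibrils, coat fibrils, span membranes or tie layers together. Because chains assemble as trimers, the genes of partner chains are usually transcribed together, several of them from neighbouring positions.

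The values are FPKM, a level per transcript length and per sequenced fragment. Steps among the lowest values corresponded to 8160000 to 9590000 fragments per library, with Cre-positive 3 the lowest by this estimate. How the libraries were normalized is not stated in these sources, so the figures may hold a scaling besides the sequenced depth. Il17ra itself stood at 6.04, 5.91 and 6.53 FPKM in Cre-negative 1 to 3 and at 7.93, 8.36 and 6.07 FPKM in Cre-positive 1 to 3, so it did not check the labels, which are used as given. Cre-negative 3 stood apart for collagens. It held the lowest value of 18 of the 24 collagens tested (75.0%), against 38.6% of 12695 genes tested. Its median log2 distance from the mean of the other libraries was -0.29 over these collagens and -0.11 over all genes tested. The same library had the highest summed level of 6 adipocyte markers, 144 FPKM against 39.2 to 74.2 FPKM elsewhere. Cre-positive 1 and 2 had high summed levels of 7 B cell markers (67.4 and 80.4 FPKM, against 6.59 to 15.4 FPKM in the other 4). In whole tissue, fewer cells of a type and less RNA per cell cannot be told apart.

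Collagen transcripts were abundant and concentrated in a few genes. Of the 44 genes, 10 averaged at least 10 FPKM, 14 lay from 1 to under 10 FPKM, 11 from 0.1 to under 1 FPKM and 9 lower still. Col3a1, Col1a1 and Col1a2 made up 40.2% of the summed collagen FPKM. The fibrillar class held 45.1%, type IV 16.3% and the other types 38.6%. The 24 genes that averaged 1 FPKM or more were tested with limma on the log2(FPKM + 1) scale, together with all other genes at that level. Just inside this limit were Col8a2 (1.09 FPKM) and Col13a1 (1.11 FPKM), and just outside were Col4a6 (0.720 FPKM) and Col24a1 (0.612 FPKM).

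**Figure D1:**
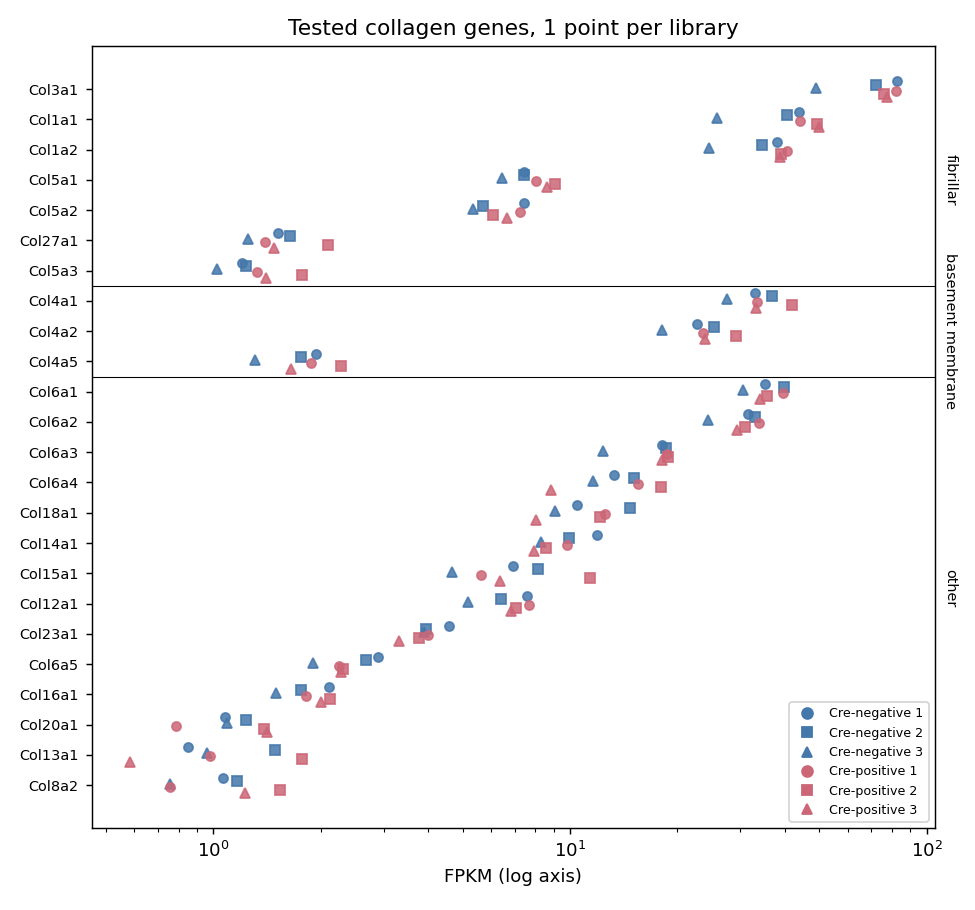
FPKM (log axis) of the 24 tested collagen genes, 1 point per library, ordered by class and mean level; blue marks Cre-negative and red Cre-positive libraries, and the shape gives the replicate number. The triangle of Cre-negative 3 is the lowest point of each of the 7 fibrillar genes and of 18 of the 24 genes.

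No collagen passed limma's test of Cre-positive against Cre-negative libraries. By limma with Benjamini-Hochberg adjustment over all 12695 genes tested, 0 of 24 collagens had an adjusted p under 0.05 (the lowest was 0.998), as did 0% of all genes tested. An unadjusted p under 0.05 was reached by 0 of 24 collagens, against 3.62% of all genes tested. The estimates were above 0, meaning higher in Cre-positive libraries, for 19 of 24 collagens (79.2%), against 58.4% of all genes tested. Their median log2 fold change was 0.11, against 0.03 over all genes tested. All genes tested with such a p divided into 2.54% higher and 1.07% lower in Cre-positive libraries. In 4 collagens (16.7%) every Cre-positive value lay above every Cre-negative value, against 5.77% of all genes tested, and in 0 the order was the opposite, against 2.6%. The 4 genes were all fibrillar. Without Cre-negative 3 the median over the collagens was 0.02, with 15 estimates above 0 (62.5%) and 9 below. Over all genes the median was then -0.010, with 47.3% above 0. Since Cre-negative 3 was lowest for 18 of the 24 collagens, leaving it out had to lower the estimates of those genes. Values without it, here and below, are therefore a description and not a test. Without Cre-negative 1 the median over the collagens was 0.18, and without Cre-negative 2 it was 0.17.

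Among the fibrillar genes, Col3a1, the single chain of type III collagen, was the most abundant collagen of the tissue. It lies on chromosome 1 from 45311538 to 45349706 (GRCm38), and Col5a2 lies from 45374321 to 45503282 on the opposite strand. Col3a1 stood at 82.4, 72.0 and 49.0 FPKM in Cre-negative 1 to 3 and at 81.8, 76.1 and 77.6 FPKM in Cre-positive 1 to 3. The Cre-positive libraries lay close together inside the range of the Cre-negative ones, among which replicate 3 was far below. The log2 fold change was 0.24 (SE 0.18), and 0.03 (SE 0.11) without Cre-negative 3.

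Type I collagen, the main fibril of the gut wall, is built from the products of Col1a1 (chromosome 11, 94936224 to 94953042) and Col1a2 (chromosome 6, 4504814 to 4541544). Col1a1 stood at 43.8, 40.5 and 25.8 FPKM in the Cre-negative and at 44.0, 49.2 and 49.9 FPKM in the Cre-positive libraries. The groups did not overlap, but Cre-negative 1 and Cre-positive 1 differed by under 1 FPKM. The log2 fold change was 0.40 (SE 0.19; exact two-sided permutation p = 0.1, the smallest that 3 against 3 animals allow), and 0.17 (SE 0.11) without Cre-negative 3. Col1a2 stood at 38.2, 34.6 and 24.5 FPKM against 40.7, 39.0 and 38.9 FPKM, again without overlap and with the nearest pair under 1 FPKM apart. Its log2 fold change was 0.30 (SE 0.16), and 0.12 (SE 0.10) without Cre-negative 3.

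Type V collagen, which sits inside type I fibrils and limits their width, showed the same order in 2 of its 3 chains. Col5a1 (chromosome 2, 27886425 to 28039514) stood at 7.44, 7.42 and 6.42 FPKM in the Cre-negative and at 8.01, 9.05 and 8.63 FPKM in the Cre-positive libraries. The nearest values, 7.44 and 8.01 FPKM, were those of the 2 libraries numbered 1. The log2 fold change was 0.24 (SE 0.11, limma unadjusted p = 0.0519, adjusted p = 0.998), and 0.18 (SE 0.11) without Cre-negative 3. Parts of its exons, 99 and 113 bases, also lie in exons of 2 noncoding genes on the opposite strand, and no source used here says whether strand was used in counting. Col5a3 (chromosome 9, 20770050 to 20815067) stood at 1.20, 1.23 and 1.03 FPKM against 1.33, 1.77 and 1.40 FPKM, with a log2 fold change of 0.21 (SE 0.13). Its groups did not overlap, and Cre-positive 2 stood above the other libraries. Col5a2, the partner chain of Col5a1, averaged 6.16 ± 1.13 FPKM and 6.66 ± 0.573 FPKM (SD, n = 3 each) with overlapping groups.

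The upstream sequences of Col3a1 and Col5a1 are shown because Col3a1 was the most abundant collagen and Col5a1 had the lowest unadjusted p of the 24. Each is the 150 bases before the start site in RefSeq, on the plus strand of GRCm38.p6, at chr1:45311388-45311537 for Col3a1 and chr2:27886275-27886424 for Col5a1. Capitals mark matches to any of 3 motifs searched on both strands, whose letters are given with their counts after the sequences.
Col3a1: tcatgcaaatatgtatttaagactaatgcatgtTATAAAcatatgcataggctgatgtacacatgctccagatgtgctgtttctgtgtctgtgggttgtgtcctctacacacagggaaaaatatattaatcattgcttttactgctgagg
Col5a1: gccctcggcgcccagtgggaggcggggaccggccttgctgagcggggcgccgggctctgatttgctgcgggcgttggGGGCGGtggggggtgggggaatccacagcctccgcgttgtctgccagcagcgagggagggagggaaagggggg
The Col3a1 stretch holds TATAAA, whose first base is 117 bases before the start site, and the Col5a1 stretch holds GGGCGG at 73 bases before it. In windows of this length, GGGCGG occurred in 19 of 38 collagen promoters (35 genes matched by symbol) and in 28.6% of 32851 promoters. CCAAT occurred in 8 of the 38 and in 24.5% of all, and TATAAA in 4 of the 38 and in 7.57% of all. These are counts of letters and not of bound factors.

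The other fibrillar genes were low. Col27a1, a fibrillar chain first known from cartilage, averaged 1.47 ± 0.201 FPKM and 1.66 ± 0.386 FPKM (SD, n = 3 each). Col24a1 averaged 0.612 FPKM over the 6 libraries, and the cartilage chains Col11a2 and Col11a1 averaged 0.522 and 0.0555 FPKM. Col2a1, the main collagen of cartilage, was listed above 0 in 1 library (Cre-positive 2, 0.0224 FPKM).

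The type IV class was represented mainly by its 2 widespread chains. Col4a1 (11198423 to 11312826) and Col4a2 (11312805 to 11449287) lie on chromosome 8 in opposite directions and share 22 bases of exon at their starts. Col4a1 stood at 33.0, 37.0 and 27.5 FPKM in the Cre-negative and at 33.5, 42.0 and 33.2 FPKM in the Cre-positive libraries. Col4a2 stood at 22.7, 25.3 and 18.1 FPKM against 23.6, 29.2 and 23.9 FPKM. Both genes were lowest in Cre-negative 3 and highest in Cre-positive 2, and their groups overlapped, with log2 fold changes of 0.15 (SE 0.14) and 0.22 (SE 0.14). Without Cre-negative 3 these were 0.04 and 0.09. Cre-positive 2 also had the highest summed level of 7 blood endothelium markers, 72.5 FPKM against 41.9 to 51.5 FPKM elsewhere, and the part of vessels in these values was not tested.

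Col4a5 and Col4a6 are neighbours on the X chromosome, read in opposite directions, and their chains join in the basement membranes of smooth muscle. Col4a5 stood at 1.93, 1.76 and 1.31 FPKM in the Cre-negative and at 1.88, 2.28 and 1.65 FPKM in the Cre-positive libraries, with a log2 fold change of 0.14 (SE 0.15). Col4a6 averaged 0.756 ± 0.136 FPKM and 0.684 ± 0.183 FPKM (SD, n = 3 each). It was lowest in Cre-positive 3. Col4a3 and Col4a4, the chains known from the kidney filter and likewise neighbours on chromosome 1, averaged 0.441 and 0.144 FPKM. Type IV thus spanned from 34.3 FPKM (Col4a1) to 0.144 FPKM (Col4a4) in mean level.

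Some partner chains kept a narrow ratio between libraries and others did not. On the per-length FPKM scale, Col4a1 over Col4a2 lay between 1.39 and 1.52, Col6a1 over Col6a2 between 1.12 and 1.25, and Col1a1 over Col1a2 between 1.05 and 1.28. The ratios of Col5a1 over Col5a2 (0.999 to 1.49) and of Col6a1 over Col6a3 (1.88 to 2.48) ranged more widely. The Col4a1 to Col4a2 ratio was 1.45, 1.46 and 1.52 in the Cre-negative and 1.42, 1.44 and 1.39 in the Cre-positive libraries. Its groups did not overlap (exact two-sided permutation p = 0.1, adjusted p = 0.4 over 6 ratios compared). The Col3a1 to Col1a1 ratio was 1.88, 1.78 and 1.90 against 1.86, 1.54 and 1.56 (exact permutation p = 0.2, adjusted p = 0.4). Cre-positive 2 and 3 were low in that ratio and Cre-positive 1 was not.

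Type VI collagen, which forms beaded microfibrils around cells, led the other types. Col6a1 and Col6a2 are near each other on chromosome 10, in the same direction. Col6a1 stood at 35.3, 39.9 and 30.6 FPKM in the Cre-negative and at 39.5, 35.7 and 34.2 FPKM in the Cre-positive libraries. Col6a2 stood at 31.5, 33.0 and 24.4 FPKM against 33.9, 30.9 and 29.4 FPKM. Apart from Cre-negative 3, the libraries of both groups were mixed, and both estimates (0.05 and 0.09 on the log2 scale) were below 0 without it (-0.04 each). Col6a3, on chromosome 1, stood at 18.1, 18.6 and 12.4 FPKM against 18.7, 18.8 and 18.2 FPKM, with 5 libraries within 1 FPKM of each other. Its log2 fold change was 0.20 (SE 0.15), and 0.02 (SE 0.09) without Cre-negative 3.

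Further chains of type VI, Col6a4, Col6a5 and Col6a6, lie side by side on chromosome 9 and differed widely in level. Col6a4 stood at 13.3, 15.2 and 11.6 FPKM in the Cre-negative and at 15.5, 18.0 and 8.83 FPKM in the Cre-positive libraries. Cre-positive 2 was the highest and Cre-positive 3 the lowest, so the spread lay within the group, with a log2 fold change of 0.03 (SE 0.24). An antisense gene shares 162 bases with its exons and an unreviewed gene model on the opposite strand 127 bases. Col6a5 averaged 2.49 ± 0.519 FPKM and 2.28 ± 0.0280 FPKM (SD, n = 3 each). Col6a6 was listed above 0 in 1 library (Cre-positive 3, 0.0300 FPKM).

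Col15a1 and Col18a1 encode the multiplexins of the basement membrane zone, the second of which is cleaved to endostatin. They were among the most variable collagens. Col15a1 stood at 6.92, 8.15 and 4.65 FPKM in the Cre-negative and at 5.63, 11.4 and 6.35 FPKM in the Cre-positive libraries, a 2.44-fold range with Cre-positive 2 on top (log2 fold change 0.19, SE 0.26). Col18a1 stood at 10.4, 14.8 and 9.10 FPKM against 12.5, 12.1 and 8.03 FPKM, with replicate 3 lowest in each group (log2 fold change -0.06, SE 0.21). Col13a1, a transmembrane collagen, stood at 0.851, 1.49 and 0.959 FPKM against 0.977, 1.77 and 0.583 FPKM, a 3.03-fold range. These 3 genes, with Col6a4 and Col1a1, had the largest SD of log2(FPKM + 1) over the 6 libraries among the 24. By the ratio of the highest to the lowest value, Col8a2 (2.04) stood above Col1a1 (1.93) and Col18a1 (1.84). The group estimate was smaller than its SE in all of them but Col1a1.

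Collagens that attach to fibril surfaces did not move as one. Col14a1, which regulates fibril diameter, stood on average at 10.1 ± 1.81 FPKM against 8.77 ± 0.953 FPKM (SD, n = 3 each), with the lowest log2 fold change of the 24 (-0.17, SE 0.14), and -0.29 (SE 0.13) without Cre-negative 3. Col12a1, found on fibrils under tension, averaged 6.39 ± 1.20 FPKM and 7.20 ± 0.423 FPKM (0.16, SE 0.14). Col16a1 averaged 1.88 FPKM and Col20a1 1.16 FPKM over the 6 libraries, with overlapping groups. Col22a1, Col9a3, Col9a2, Col9a1 and Col19a1 averaged between 0.0134 and 0.194 FPKM. Of the transmembrane and network-forming types, Col23a1 averaged 4.14 ± 0.389 FPKM and 3.69 ± 0.356 FPKM (SD, n = 3 each). Col8a2, a short-chain collagen of vessel walls and the eye, averaged 0.995 ± 0.214 FPKM and 1.18 ± 0.395 FPKM. Col7a1, the anchoring fibril of stratified epithelia, averaged 0.247 FPKM and Col28a1 0.226 FPKM. Col26a1 (Cre-positive 2, 0.169 FPKM) and Col10a1 of growth cartilage (Cre-negative 1, 0.0327 FPKM) were above 0 in 1 library each.

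**Figure D2:**
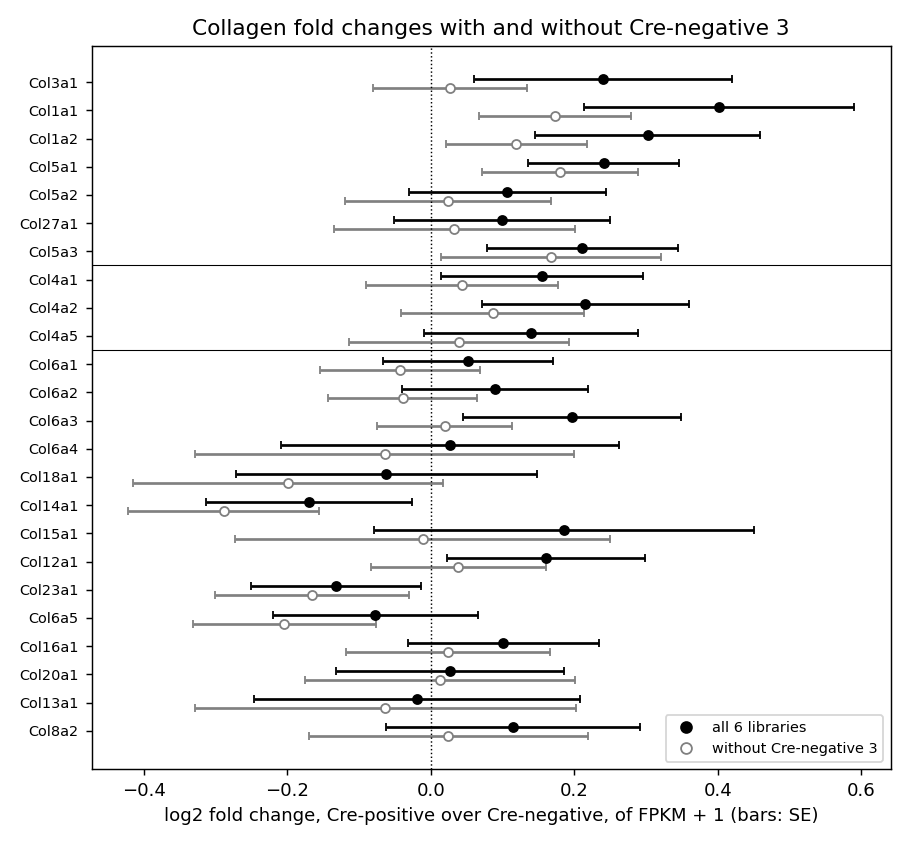
Log2 fold change of FPKM + 1, Cre-positive over Cre-negative, with its standard error, for the 24 tested collagens from all 6 libraries (black) and without Cre-negative 3 (open). The 7 fibrillar estimates run from 0.10 to 0.40 with all libraries and from 0.02 to 0.18 without that library.

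Below the limit of 1 FPKM, 3 of the 20 genes had groups that did not overlap. Of the 20, 2 (10%) were higher and 1 (5%) lower in every Cre-positive library, against 6.39% and 2.41% of the 5067 genes below that limit that were above 0 in some library, a difference of under 1 gene in each direction. The 3 genes were chosen after their values were seen. Col17a1, the hemidesmosome collagen that holds epithelial cells to the basement membrane (chromosome 19, 47646344 to 47692094), stood at 0.0183, 0.0188 and 0.0199 FPKM in the Cre-negative libraries. In the Cre-positive libraries it stood at 0.224, 0.264 and 0.0432 FPKM. Once the estimated depth was allowed for, these values were 1, 1 and 1 steps against 12, 13 and 2 steps. Here 1 step is the smallest difference between this gene's values and is taken as 1 fragment. The summed ratio per depth was 9.55, with an exact (Clopper-Pearson) 95% interval of 2.94 to 49.2 that covers counting error only. The 2 libraries with high Col17a1 are the 2 with high B cell markers, and a link was not tested. In limma's test without a filter on low values the unadjusted p was 0.0316 and the adjusted p was 0.980.

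Col25a1, a transmembrane collagen known from neurons, stood at 0.0438, 0.0150 and 0.0318 FPKM in the Cre-negative and at 0.129, 0.133 and 0.133 FPKM in the Cre-positive libraries. All 3 Cre-positive values lay within 0.01 FPKM of each other and above the Cre-negative ones. Without the filter, limma gave an unadjusted p = 0.00694 and an adjusted p = 0.980. Summed markers of enteric neurons were 21.1, 20.4 and 15.1 FPKM against 17.8, 16.6 and 16.5 FPKM, and overlapped. Col8a1, a short-chain collagen of vessel walls, went the other way, at 0.663, 0.660 and 0.614 FPKM against 0.577, 0.540 and 0.552 FPKM (unadjusted p = 0.206 without the filter). Of the 20 low genes, 13, not including Col25a1 and Col8a1, had values in whole steps in every library, with a tolerance of 0.1 step. For Col11a1 these were 1, 6 and 3 steps against 4, 7 and 2, and for Col9a3 they were 4, 3 and 2 against 1, 8 and 4, which shows how little such values carry.

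**Figure D3:**
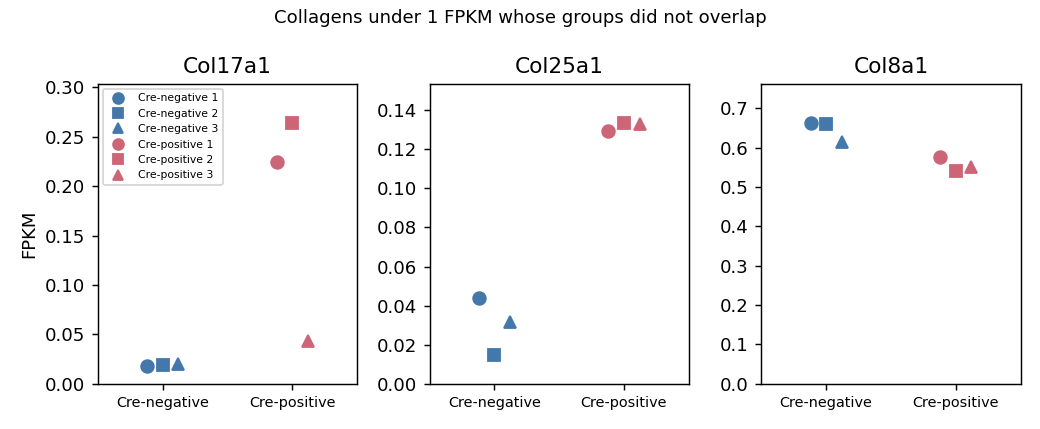
FPKM of Col17a1, Col25a1 and Col8a1 in each library, with Cre-negative in blue, Cre-positive in red and the replicate number given by shape. Col17a1 is high in Cre-positive 1 and 2 (0.224 and 0.264 FPKM), Col25a1 lies at about 0.13 FPKM in each Cre-positive library, and Col8a1 is the lower in the Cre-positive group.

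Summed by class, Cre-negative 3 was the lowest library in each of the 3 classes. Fibrillar collagens summed to 183, 164 and 114 FPKM in Cre-negative 1 to 3 and to 186, 185 and 186 FPKM in Cre-positive 1 to 3. The Cre-positive sums were 185 ± 0.389 FPKM and the Cre-negative ones 154 ± 35.5 FPKM (SD, n = 3 each), a ratio of 1.20, and of 1.07 without Cre-negative 3. Type IV collagens summed to 58.8, 65.5 and 47.9 FPKM against 60.4, 75.2 and 59.6 FPKM, a ratio of 1.13, and of 1.05 without that library. The other types summed to 149, 160 and 118 FPKM against 156, 158 and 132 FPKM, a ratio of 1.04, and of 0.961 without it. Cre-negative 3 held 0.633 of the mean of the other 5 libraries for fibrillar, 0.750 for type IV and 0.780 for other collagens. These sums follow from the choice of members and carry no test.

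**Figure D4:**
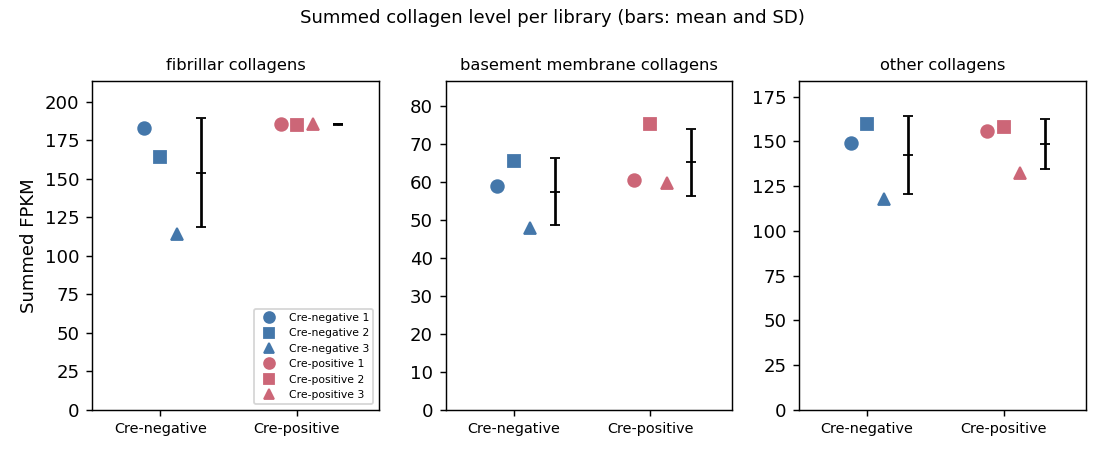
Summed FPKM of the 11 fibrillar, 6 type IV and 27 other collagen genes in each library, with the group mean and SD beside the points. The 3 Cre-positive points of the fibrillar class coincide near 185 FPKM, while the Cre-negative points run from 183 down to 114 FPKM.

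Markers of collagen-producing cells followed the order of the collagens in part. The 8 fibroblast markers summed to 187, 136 and 142 FPKM in the Cre-negative and to 164, 141 and 149 FPKM in the Cre-positive libraries, with Cre-negative 2 the lowest. That sum is mostly decorin (Dcn, 82.1 FPKM in Cre-negative 3). Without Dcn, a choice made after the values were seen, the other 7 markers summed to 83.4, 64.5 and 60.0 FPKM against 72.0, 66.6 and 67.8 FPKM, with Cre-negative 3 the lowest, as it was for 3 of the 8 markers singly (Dpt, Lum and Cd34). The 8 smooth muscle markers summed to 972, 771 and 730 FPKM against 798, 641 and 746 FPKM, with Cre-positive 2, rich in type IV collagen, the lowest. Summed pericyte markers were lowest in Cre-negative 3 (92.7 FPKM against 104 to 132 FPKM elsewhere). That sum is mostly Rgs5 (66.8 FPKM in Cre-negative 3), and no sum without Rgs5 was taken. Cspg4, Notch3 and Abcc9 were also lowest in Cre-negative 3, whereas Pdgfrb was lowest in Cre-positive 3. Kcnj8 was highest in Cre-negative 3 (6.81 FPKM) and lowest in Cre-positive 2. Epithelial markers summed to 3870 to 5082 FPKM over the 6 libraries, with Cre-negative 3 (4731 FPKM) inside that range. All 8 fibroblast and all 8 smooth muscle markers were above 0 in every library. The part of these cells in the collagen values was not tested.

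**Figure D5:**
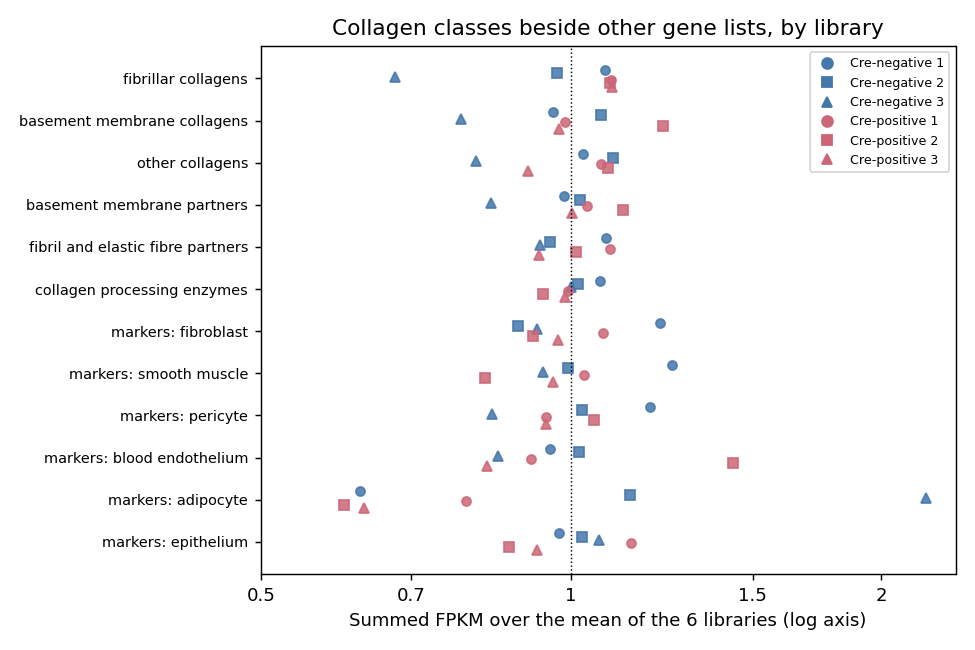
Summed FPKM of the collagen classes and of other gene lists in each library, divided by the mean of the 6 libraries (log axis), with Cre-negative in blue and Cre-positive in red. Cre-negative 3 is low for the 3 collagen classes and for basement membrane partners and high for adipocyte markers. The sum of collagen processing enzymes, mostly P4hb and Ppib (means of 645 and 194 FPKM), differs little between libraries. For single tested members of that list the median ratio of highest to lowest value was 1.41, as it was over all genes tested (1.41).

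These lists cover genes that make, fold, cross-link, bind or cleave collagen, read from the same fit. Of 90 tested genes on 7 such lists, 0 passed limma's adjusted p of 0.05, while 2 (2.22%; Pcolce and Tnxb, both higher) fell below 0.05 before adjustment, a smaller share than the 3.62% of all genes. Their median log2 fold change was 0.05. Laminins and other partners of type IV in basement membranes had 15 of 16 estimates above 0 (median 0.10), against 58.4% of all genes (median 0.03). Cre-negative 3 was the lowest library for 9 of the 16. Without it 13 estimates were above 0 with a median of 0.06, and the ratio of summed FPKM went from 1.11 to 1.05. Hspg2, which encodes the basement membrane proteoglycan perlecan, averaged 15.7 ± 2.83 FPKM and 21.1 ± 4.58 FPKM (SD, n = 3 each), a log2 difference of 0.39. The laminin chain gene Lamc1 had a log2 fold change of 0.21. Sparc, a collagen-binding protein and the most abundant of that list, averaged 57.8 ± 12.5 FPKM and 61.5 ± 3.26 FPKM (SD, n = 3 each).

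The enzymes of collagen processing were split, with 10 of 20 estimates above 0 and a median of 0.01. Without overlap, 3 of the 20 (15.0%) were higher and 1 (5.0%) lower, against 5.77% and 2.6% of all genes tested. Pcolce, an enhancer of the enzyme that trims procollagen, averaged 6.31 ± 0.716 FPKM and 7.74 ± 0.351 FPKM (SD, n = 3 each) without overlap (log2 fold change 0.26). Its limma p was 0.0464 unadjusted and 0.998 adjusted. P4ha2, a prolyl hydroxylase subunit, had a log2 fold change of -0.40 (SE 0.19), and P4hb, its partner and the protein disulfide isomerase of the endoplasmic reticulum, was the most abundant at 645 FPKM (-0.09, with every Cre-positive value below every Cre-negative one). Partners of fibrils and elastic fibres had 11 of 16 estimates above 0 (median 0.06). Among them Tnxb, a tenascin that binds fibrils, averaged 7.13 ± 0.671 FPKM and 8.62 ± 0.353 FPKM (SD, n = 3 each), a log2 difference of 0.25. Limma gave Tnxb a p of 0.0472 unadjusted and 0.998 adjusted. The elastin gene Eln had a log2 fold change of 0.33, and the groups of both genes did not overlap. They were the 2 of 16 (12.5%) higher without overlap, against 5.77% of all genes tested. Decorin (Dcn), the most abundant of these partners at 84.2 FPKM, had a log2 fold change of -0.04.

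Cross-linking enzymes had 3 of 6 estimates above 0, with the peroxidasin gene Pxdn, which cross-links type IV collagen, at 0.27 and the transglutaminase gene Tgm2 at -0.20. Collagen-degrading enzymes and their inhibitors had 7 of 13 above 0. Mmp7, a Paneth cell protease in mice and the most abundant of that list, averaged 246 ± 38.2 FPKM and 201 ± 19.4 FPKM (SD, n = 3 each). Mmp10 had a log2 fold change of -0.40 (SE 0.29). Collagen receptors had 4 of 8 above 0, with Gpr56 at 0.23, Ddr2 at 0.13 and the integrin gene Itgb1, the most abundant, at -0.04. Of the genes listed for signals that induce collagen, 6 of 11 were above 0. Tgfb1 stood at 0.34 (SE 0.19), its receptor gene Tgfbr2 at 0.21 and Smad4, the most abundant, at -0.15. The groups of these 3 genes overlapped. The 6 included Smad7 (0.16) and Skil (0.07), which restrain this signalling. Tgfb2 (-0.08) and Tgfb3 (-0.15) were lower in every Cre-positive library. They were the 2 of 11 (18.2%) without overlap, against 2.6% of all genes tested in that direction. Their unadjusted p in limma was 0.555 and 0.234. Over all matrix lists, 3 of 90 genes (3.33%) were lower without overlap and 5 (5.56%) higher, against 2.6% and 5.77% of all genes tested.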

How the data were processed

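Whole terminal ileum of 6 mice was sequenced with directional libraries, per the labels' protocols. STAR, Cufflinks and Cuffnorm, beside FastQC, Trimmomatic, SAMtools and bedtools, stand in the submitters' processing notes without versions, as do the builds mm10 and GRCm38. The authors deposited FPKM values, to which no count test was applied. The 12695 genes averaging 1 FPKM or more were compared on the log2(FPKM + 1) scale, which understates changes of low genes, with limma 3.58.1 (R 4.3.3, intensity trend, two-sided, Benjamini-Hochberg adjustment, threshold 0.05), checked on simulated data. Each library is 1 mouse, so p-values measure the spread between animals. No batch is named in these sources.

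The members and lists were chosen with earlier results of these data known. Values in every library are given for the 3 most abundant members of each class, tested members whose groups did not overlap or whose unadjusted p was under 0.05, and the 5 most variable. Of each matrix list, the 2 members with the smallest p and the most abundant are named. Tgfb2 and Tgfb3 were added beside Tgfb1 after the data were seen. Of 192 list entries, 7 were found under older symbols. All 44 collagens were placed by GENCODE M21. Depth was estimated from steps among low values. Alternatives were other pseudocounts (0.1 and 5), filters (none and 5 FPKM), scalings and weights, limma without the trend, a replicate block and each library left out. Fibroblast markers without Dcn and the partner lists without Cre-negative 3 were added after the data were seen. Sums, ratios and exact permutation tests were computed in Python 3.11.15 (numpy 2.4.6, pandas 2.3.3) and drawn with matplotlib 3.10.9.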

Additional observations from a re-analysis of the deposited data

How the results depend on the processing

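No collagen and no gene of the matrix lists passed an adjusted p of 0.05 in limma under any alternative run. The lowest adjusted p of a collagen was 0.138 with array weights and 0.536 after rescaling to an equal sum. Over all genes the count of 0 became 2 with a pseudocount of 0.1, 2 with a pseudocount of 5, 24 with array weights, 2 with all libraries scaled to the same FPKM total, and 0 to 41 when 1 library was left out (41 without Cre-positive 3).

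Collagens with an unadjusted p under 0.05, 0 of 24 in limma as reported, were 4 (16.7%) after rescaling to an equal sum, against 9.24% of all genes there, and 3 (12.5%) with array weights, against 21.4%. They were 2 (8.33%, against 4.6%) without Cre-negative 1 and 2 of 44 (4.55%, against 4.34%) without a filter. They were 1 (4.17%) with a pseudocount of 0.1 (against 3.62% of all genes) and under quantile normalization (against 3.88%). The count was also 1 with median-of-ratios scaling (against 3.9%) and without Cre-positive 1 (against 6.52%).

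The replicate numbers are shared by the groups, and whether they pair the samples cannot be told from 3 animals per group. The correlations of same-numbered deviations from the group means were -0.13, 0.0343 and -0.113. Those of differently numbered ones lay between -0.0207 and 0.135. With the replicate block, 1 gene and no collagen passed.

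The median log2 fold change of the other collagens turned to -0.041 without Cre-negative 3 and -0.062 without Cre-positive 2, with 0.12 as the highest value when a library was left out. That of the fibrillar class stayed between 0.12 and 0.27 over the libraries left out, and that of all tested collagens between 0.02 and 0.18. Over the libraries left out, the ratio of summed fibrillar FPKM lay between 1.07 and 1.33, that of type IV between 1.05 and 1.22 and that of the other types between 0.961 and 1.11.

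Of 237 single-gene alternatives for 15 collagens, 219 kept their direction and 18 turned. With array weights Col6a1 became -0.11 and Col6a2 -0.059. With median-of-ratios scaling Col6a4 became -0.010. After rescaling to an equal sum Col18a1 became 0.043 and Col13a1 0.033, and the median of all genes moved from 0.03 to 0.13. Leaving out 1 library gave -0.043 to 0.14 for Col6a1, -0.039 to 0.17 for Col6a2, -0.17 to 0.31 for Col6a4, -0.20 to 0.12 for Col18a1, -0.089 to 0.36 for Col15a1 and -0.24 to 0.17 for Col13a1. The 4 collagens whose groups did not overlap were 4 with median-of-ratios scaling, 3 under quantile normalization (Col5a3 overlapped) and 8 after rescaling to an equal sum (Col3a1, Col4a5, Col6a3 and Col12a1 were added). The share of all genes without overlap was not computed under these scalings, so these counts have no background. After rescaling to an equal sum, 83.1% of all genes had an estimate above 0, against 58.4% in the main fit. The cause of these changes was not tested. Genes averaging under 5 FPKM have no value with the filter of 5 FPKM.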
